A study of Mus musculus with 15 samples.

Results

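The genes described here are the mouse genes named Zfp followed by a number alone, such as Zfp318 or Zfp9, that had at least 1 RPKM (reads per kilobase of exon, scaled to the depth of the library) in at least 3 of 15 libraries. There were 259 such genes among 326 numbered Zfp genes in the table, and 67 did not reach that level. Zfp36 was left out, because its product is an RNA-binding protein with a different kind of finger. The genes were chosen by their level in RPKM, so that a level above the threshold is no result. Of the 259 genes, 199 were at or above 1 RPKM in every library, and 10 reached it in naive libraries alone, which had to make those 10 lower in the other groups. Just inside the threshold stood Zfp128, Zfp90 and Zfp446, for which the third highest of the 15 values was 1.056, 1.1 and 1.101 RPKM. Just outside stood Zfp229, Zfp11 and Zfp931, with 0.992, 0.987 and 0.98 RPKM.

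Poly(A) RNA was sequenced from CD43- splenic B cells of wild-type female C57BL/6J mice, in 5 groups of 3 libraries. The naive group was neither stimulated nor treated. The other groups were cultured for 3 days with LPS, IL-2 and IL-5, and received either 250 nM GSK-J4, an inhibitor of the demethylases that remove the repressive mark H3K27me3, or DMSO, its solvent. Magnetic enrichment then gave a GL7+ fraction, which the labels call activated B cells, and a CD138+ fraction, which they call plasmablasts, so the 5 groups are naive, GL7+ DMSO, GL7+ GSK-J4, CD138+ DMSO and CD138+ GSK-J4. Replicates 1 to 3 were 3 mice, each of which gave cells to every group, except that 1 CD138+ GSK-J4 library (replicate 4) had no mouse assigned. The ages of the mice were not given in the sources used here, and enrichment on a magnet leaves some other cells in a fraction.

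Most of these genes encode proteins with C2H2 zinc fingers, short loops held by a zinc ion that read DNA bases, strung together in tandem. Many carry a KRAB box, which recruits the co-repressor TRIM28 (also KAP1), and through it the histone methyltransferase SETDB1 and the HP1 proteins, so that the bound DNA gains H3K9me3. KRAB zinc finger proteins are best known for silencing retroviruses and other transposable elements, and their genes lie in clusters that arose by duplication. The Zfp name marks the finger and not a shared function: other members act in splicing, ribosome maturation, mitosis or ubiquitin transfer.

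A coding sequence was at hand for 258 of the 259 genes. Translated and searched by pattern, these held a median of 10 fingers, with 36 in Zfp142, 33 in Zfp619, 30 in Zfp236 and 0 in Zfp330, Zfp781, Zfp703 and Zfp839. A KRAB A box was matched in 128 and not in 130, and a SCAN box, a domain for pairing with other proteins, in 10. The match is not complete: Zfp445, known as a KRAB protein that protects genomic imprints, had none. The genes with a KRAB match had a median of 12 fingers and a median level of 3.02 RPKM, and those without it 8 fingers and 5.6 RPKM. In RefSeq gene order, 122 members had another member as the next coding gene, in 41 runs of at least 2, and 83 of these 122 had the KRAB match against 45 of the 136 others.

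As a group these were genes of low expression. The median of their mean levels was 4.42 RPKM, against 11.2 RPKM over the 10866 genes tested. Their mean levels ran from 0.597 to 56.9 RPKM, with 143 genes under 5 RPKM and 14 at 20 RPKM or more. The highest was Zfp207 (BuGZ, a spindle protein that loads BUB3 on kinetochores), followed by Zfp706 at 54.7, Zfp106 (an RNA-binding protein) at 50.8, Zfp362 at 27.4, Zfp91 (a ubiquitin ligase of the non-canonical NF-kB pathway) at 25.5 and Zfp592 at 23.8 RPKM. None of these 6 had a KRAB match.

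Library depth, recovered from the steps of the RPKM values, ran from 6175182 to 13190033 reads, except in naive replicate 2, with 1318002. A member rested on a median of 31 reads in that library and of 92 to 319 reads in the others. The B cell genes Ms4a1 and Pax5 were highest in naive cells, and Sdc1, which encodes CD138, averaged 32.6 and 40.1 RPKM in the CD138+ groups against 1.37 to 3.13 RPKM elsewhere. T cell, NK cell, myeloid, erythroid and platelet genes were highest in the naive libraries. The summed level of 9 T cell markers was 23.2 to 29.1 RPKM there against 4.25 to 9.14 in cultured libraries, of 7 NK markers 5.94 to 6.68 against 0.277 to 0.951, and of 9 myeloid markers 59.0 to 95.5 against 1.46 to 4.53. For 4 erythroid and platelet markers it was 66.4 to 81.3 against 0.703 to 9.53 RPKM. The 6 dendritic cell markers summed to 27.4 to 30.6 RPKM in naive, 21.0 to 33.1 in GL7+ and 5.6 to 11.1 in CD138+ libraries. Cd8b1, Mpo and Elane stayed under 0.5 RPKM in every library. The part of these other cells in the differences from naive cells was not tested.

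Numbered Zfp genes took a larger share of the RNA in naive cells than in any cultured group. Their reads summed to 12257, 11588 and 11605 RPM (reads scaled to the same depth in every library, as in RPKM but not divided by length) in the naive libraries. In the 12 cultured libraries the sums lay between 7024 and 7747.4 RPM, so that the ranges did not overlap. The median member stood at 5.592 to 6.038 RPKM in naive and at 3.495 to 4.042 RPKM in cultured libraries, while the median of all genes tested moved little, from 10.356 to 10.954 RPKM in naive and from 9.582 to 10.74 RPKM in cultured libraries. For 180 of the 259 genes the naive group had the highest mean of the 5, among them the 10 that the threshold forced there. The same share over all genes tested was not computed. In bulk RNA, fewer cells of a type and less RNA per cell cannot be told apart, and RPKM gives shares of the RNA, not amounts per cell.

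**Figure D1:**
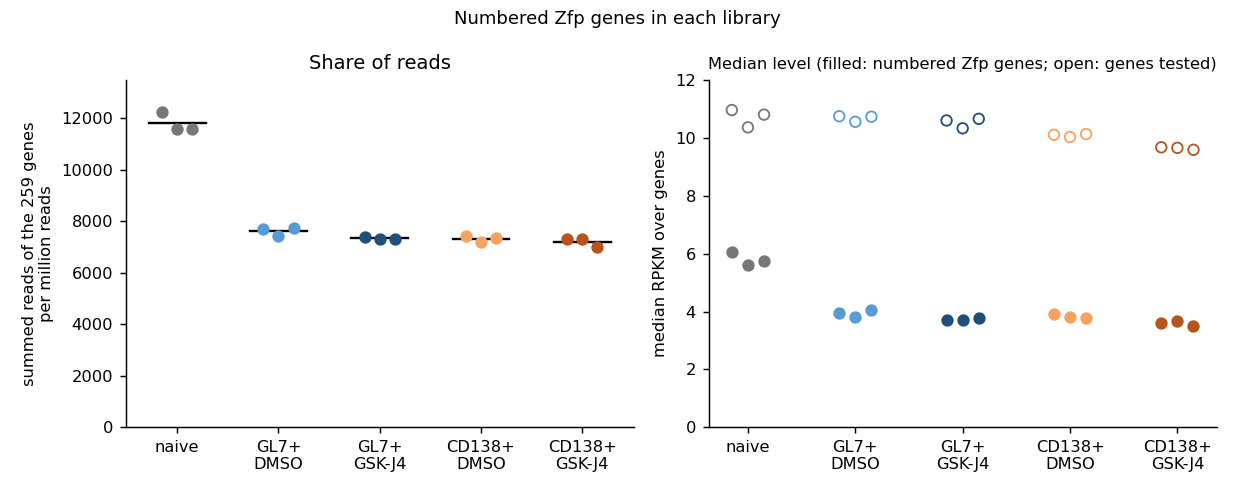
Left, the summed RPM of the 259 numbered Zfp genes in each library, with a line at each group's mean; right, the median RPKM of these genes (filled points) and of the 10866 genes tested (open points). The 3 naive libraries lie at 11588 to 12257 RPM and the 12 cultured ones at 7024 to 7747.4, while the open points lie between 9.582 and 10.954 RPKM throughout.

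Gene by gene, 169 of the 259 members fell in GL7+ DMSO cells against naive cells (65.3%) and 35 rose (13.5%). Over the 10866 genes tested, 40.3% were lower and 41.3% higher, 81.7% in all against 78.8% of the members. In CD138+ DMSO cells 181 members fell against naive cells (69.9%) and 38 rose (14.7%), beside 43.5% lower and 39.9% higher of all genes tested, so that 84.6% of the members and 83.4% of all genes tested passed the test. The share of members with a call was thus near the background, and the split between the directions was not. The 3 cultured and 3 naive libraries did not overlap for 203 members in GL7+ (78.4%, beside 80.7% of all genes tested) and for 215 in CD138+ cells (83.0%, beside 82.2%). These calls come from limma on log2(RPKM + 1) with Benjamini-Hochberg adjusted p under 0.05 over all genes tested. The median log2 change of the members was -0.46 in GL7+ and -0.52 in CD138+ cells, and over all genes tested 0.01 and -0.05. Changes are on the scale of log2(RPKM + 1), which understates the fold of genes with low levels. The 2 comparisons share the naive libraries.

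Without the 10 genes that only naive libraries carried past the threshold, 159 of 249 were lower and 35 higher in GL7+ cells, and 171 and 38 in CD138+ cells. Among the 130 genes at or above the median member, 83 were lower and 18 higher in GL7+ cells, and among the 129 below it 86 and 17. Mean RPKM was at least 2-fold lower for 69 genes in GL7+ and 95 in CD138+ cells, and at least 4-fold lower for 15 and 19. It was at least 2-fold higher for 8 and 11 genes, and at least 4-fold higher for 6 and 5. These fold counts were not taken over all genes tested.

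Lower calls outnumbered higher ones both with and without a KRAB match. Of the 128 KRAB genes, 89 fell and 12 rose in GL7+ cells, with a median log2 change of -0.51, and 95 fell and 17 rose in CD138+ cells, with a median of -0.61. Of the 130 genes without the match, 79 fell and 23 rose in GL7+ cells (median -0.37), and 85 fell and 21 rose in CD138+ cells (median -0.42). The 30 genes with neither KRAB nor more than 3 fingers had medians of -0.08 in GL7+ and -0.33 in CD138+ cells. Genes with like fingers but other names had similar shares: 164 other tested genes with at least 3 C2H2 fingers by the same pattern had 107 lower and 25 higher calls in GL7+ cells (65.2% and 15.2%), and 114 and 25 in CD138+ cells (69.5% and 15.2%). All genes tested had 40.3% lower and 41.3% higher calls in GL7+ cells, and 43.5% and 39.9% in CD138+ cells. The differences between these classes were not tested.

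**Figure D2:**
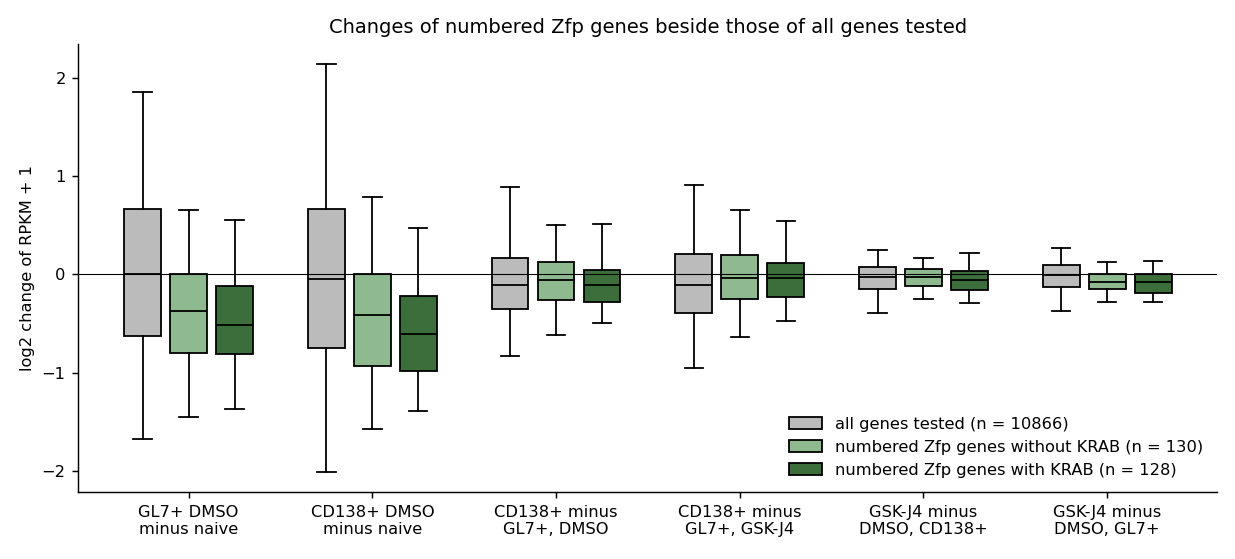
Log2 change of RPKM + 1 in 6 comparisons for all 10866 genes tested (grey), 130 numbered Zfp genes without a KRAB match (light green) and 128 with it (dark green); boxes span the middle 50% of the genes with a line at the median, and whiskers run from the 5th to the 95th percentile. The medians of both classes lie below 0 against naive cells, at of -0.51 and -0.61 for the KRAB genes, and the 3 medians lie near 0 for GSK-J4 against DMSO.

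On the log2(RPKM + 1) scale the largest decrease was that of Zfp318, which also had the highest naive level of the members. It encodes the factor that lets B cells splice the long Ighm to Ighd transcript and so display IgD. It stood at 83.8, 79.2 and 74.96 RPKM in naive cells, 5.48, 5.07 and 5.596 in GL7+ DMSO, 4.45, 4.50 and 3.79 in GL7+ GSK-J4, 2.67, 2.46 and 2.33 in CD138+ DMSO and 2.02, 2.19 and 2.05 in CD138+ GSK-J4. Every naive library was far above every cultured one, and every GL7+ library above every CD138+ one. The 2 treatments did not overlap within either fraction. With GSK-J4 the log2 change was -0.18 in CD138+ (adjusted p 0.13, limma) and -0.29 in GL7+ cells (adjusted p 0.018). The GL7+ call was lost under 4 of 14 alternative analyses. The means fell 14.7-fold in GL7+ DMSO cells (log2 change -3.65, SE 0.07, adjusted p 3.0e-15, limma) and 31.9-fold in CD138+ DMSO cells (-4.52, SE 0.07, adjusted p 3.1e-16).

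Zfp831 came next, with 23.1, 27.5 and 21.8 RPKM in naive cells, 1.47, 1.203 and 1.56 in GL7+ DMSO, 1.33, 1.36 and 1.24 in GL7+ GSK-J4, 1.05, 0.947 and 0.938 in CD138+ DMSO and 0.768, 0.727 and 0.84 in CD138+ GSK-J4. Again no cultured library came near the naive ones. It fell by 3.38 in GL7+ and by 3.66 in CD138+ DMSO cells on the log2 scale (SE 0.09 each). Zfp608, a relative of the NIPBL partner Zfp609, had 13.1, 13.6 and 12.1 RPKM in naive, 2.97, 2.86 and 2.81 in GL7+ DMSO and 1.37, 1.40 and 1.28 in CD138+ DMSO cells. The 3 groups did not overlap and formed a descending series, with log2 changes from naive of -1.84 and -2.56 (SE 0.08). Zfp609 itself averaged 4.99 RPKM in both naive and GL7+ DMSO cells and rose to 7.05 RPKM in CD138+ DMSO cells (log2 change 0.43, adjusted p 0.00012).

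Zfp366 (DC-SCRIPT), known from dendritic cells, had 2.94, 3.03 and 2.99 RPKM in naive cells, from 107, 11 and 51 reads. It was listed at 0 in all 12 cultured libraries. Taking 3 reads over the group as the floor, it was at least 89.3-fold lower in GL7+ DMSO and at least 88.0-fold lower in CD138+ DMSO cells, and it was the sole member at 0 throughout a group. Among the KRAB genes the largest decreases past the naming rule were those of Zfp866, from a mean of 14.2 ± 0.939 RPKM (SD, n = 3) in naive to 3.16 ± 0.224 in GL7+ DMSO and 3.09 ± 0.237 in CD138+ DMSO cells, and of Zfp619, which has 33 fingers, from 4.59 ± 0.75 to 0.839 ± 0.0884 and 0.519 ± 0.0988 RPKM. Zfp366 and Zfp619 were among the 10 genes that reached 1 RPKM in naive libraries alone. The threshold thus fixed the direction of their change, which is no result. Zfp652 fell further in GL7+ than in CD138+ cells: naive libraries had 12.1, 12.5 and 12.3 RPKM, GL7+ DMSO 2.92, 2.11 and 1.83, and CD138+ DMSO 4.01, 5.001 and 4.87. These 3 groups did not overlap either.

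Fewer members rose. Zfp428 had 0.38, 0 and 0.452 RPKM in naive cells, 2.66, 2.44 and 2.45 in GL7+ DMSO and 3.40, 3.69 and 3.50 in CD138+ DMSO cells. The naive values rest on 14 reads in all, and the pooled rate was 6.67 times as high in GL7+ DMSO cells (95% counting interval 3.85 to 12.5) and 9.38 times in CD138+ DMSO cells (5.46 to 17.5). Zfp580 rose from 0.895, 0.689 and 0.441 RPKM to 3.39, 3.49 and 3.79 in GL7+ DMSO and 3.66, 3.67 and 3.22 in CD138+ DMSO cells, from 17 naive reads. The pooled ratios were 4.75 (2.85 to 8.41) and 4.71 (2.83 to 8.34), and these intervals, exact for a ratio of read counts, cover counting error alone. Zfp808, a KRAB gene with 22 fingers, rose from 3.37 ± 0.418 to 7.64 ± 0.296 RPKM in GL7+ DMSO cells (SD, n = 3; log2 change 0.99, SE 0.09). Zfp106, one of the most abundant members, had 32.5, 34.5 and 29.4 RPKM in naive, 52.1, 49.7 and 51.9 in GL7+ DMSO and 56.6, 59.8 and 56.7 in CD138+ DMSO cells. All cultured libraries were above all naive ones, with log2 changes of 0.66 and 0.83 (SE 0.06). Zfp61, Zfp422 and Zfp64 rose in GL7+ DMSO cells by 0.66, 0.65 and 0.62 on the log2 scale, and in CD138+ DMSO cells the changes were 1.20, 0.13 (adjusted p 0.14) and 1.02.

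On the log2(RPKM + 1) scale the largest increase in CD138+ DMSO cells against naive cells was that of Zfp9, a KRAB gene with 12 fingers. It had 0.039, 0.194 and 0.041 RPKM in naive cells, 0.885, 0.646 and 0.78 in GL7+ DMSO, 0.683, 0.695 and 0.564 in GL7+ GSK-J4, 4.96, 4.03 and 5.50 in CD138+ DMSO and 3.51, 3.77 and 3.30 in CD138+ GSK-J4. Only 4 naive reads stand behind the first 3 values, and the pooled rate in CD138+ DMSO cells was 97.5 times the naive one (95% counting interval 37.9 to 359). Zfp9 reached 1 RPKM in CD138+ libraries alone. The threshold thus set the direction of its difference from naive and GL7+ cells. Zfp658, a KRAB gene with 21 fingers, had 1.32, 2.92 and 0.718 RPKM in naive, 1.62, 1.86 and 1.81 in GL7+ DMSO, 2.26, 2.61 and 2.71 in GL7+ GSK-J4, 6.75, 7.90 and 8.19 in CD138+ DMSO and 9.71, 11.0 and 9.97 in CD138+ GSK-J4. The naive and GL7+ DMSO values overlapped (log2 change 0.14, adjusted p 0.52), and every CD138+ library was above all others.

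**Figure D3:**
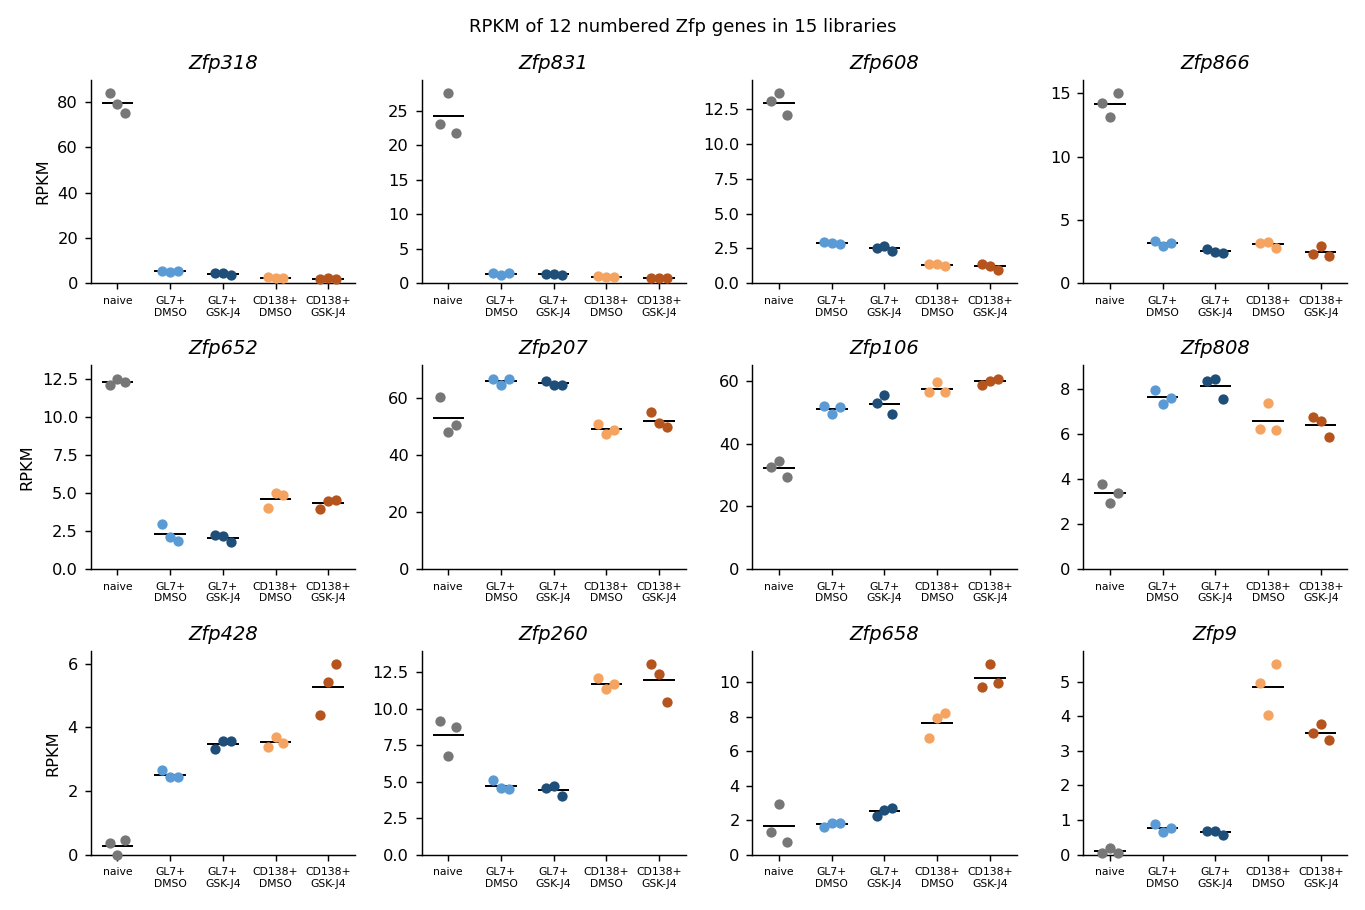
RPKM of 12 numbered Zfp genes in each of the 15 libraries, coloured by group, with a line at each group's mean and an axis from 0 in each panel. Zfp318 stands at 74.96 to 83.8 RPKM in naive cells and at most 5.596 in cultured cells, Zfp106 and Zfp808 are higher in every cultured library than in every naive one, and Zfp9 and Zfp658 are highest in the CD138+ libraries.

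To show what lies in front of genes whose calls went in opposite directions, the 250 bases before the RefSeq transcript start (build GRCm38.p6) are given for 2 members that fell in both DMSO fractions against naive cells, Zfp318 (chr17:46383516-46383765, + strand) and the KRAB gene Zfp866 (chr8:69774912-69775161, - strand), for Zfp428, which rose in both (chr7:24506837-24507086, + strand), and for the KRAB gene Zfp658, which rose in CD138+ DMSO cells alone (chr7:43562120-43562369, + strand). Capitals mark matches on either strand to GGGCGG (GC box), CCGGAAG (Ets), CACGTG (E-box), TATAAA (core promoter), CGCATGCG (NRF1) or AAGATGGC (YY1), none of which overlapped here. Each ends at the base before the first exon of that transcript and is read 5′ to 3′ on the gene's strand.
Zfp318: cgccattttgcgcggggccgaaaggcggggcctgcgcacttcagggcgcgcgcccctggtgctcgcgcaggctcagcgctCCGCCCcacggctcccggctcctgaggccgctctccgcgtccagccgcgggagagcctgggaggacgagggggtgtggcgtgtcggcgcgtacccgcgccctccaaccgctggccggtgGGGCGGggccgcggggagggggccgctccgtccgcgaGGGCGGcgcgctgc
Zfp866: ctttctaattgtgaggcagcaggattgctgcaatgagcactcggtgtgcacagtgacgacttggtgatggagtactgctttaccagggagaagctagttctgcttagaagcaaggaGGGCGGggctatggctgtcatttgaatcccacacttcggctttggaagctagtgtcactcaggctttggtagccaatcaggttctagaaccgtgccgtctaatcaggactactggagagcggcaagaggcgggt
Zfp428: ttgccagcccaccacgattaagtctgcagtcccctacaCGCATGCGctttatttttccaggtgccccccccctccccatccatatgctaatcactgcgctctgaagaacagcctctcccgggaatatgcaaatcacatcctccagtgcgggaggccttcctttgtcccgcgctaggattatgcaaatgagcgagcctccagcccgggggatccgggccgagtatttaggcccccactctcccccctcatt
Zfp658: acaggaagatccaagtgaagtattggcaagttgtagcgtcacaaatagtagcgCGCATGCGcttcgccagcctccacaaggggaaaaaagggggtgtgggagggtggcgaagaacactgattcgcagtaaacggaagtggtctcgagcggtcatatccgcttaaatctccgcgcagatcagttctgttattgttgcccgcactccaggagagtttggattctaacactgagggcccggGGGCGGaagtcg
The Zfp318 window held 3 GC boxes and 39 CpG dinucleotides, that of Zfp866 1 GC box and 8 CpG, that of Zfp428 1 NRF1 motif and 12 CpG, and that of Zfp658 1 GC box, 1 NRF1 motif and 17 CpG.

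Windows of this length were at hand for 215 members. GGGCGG was present in 44.7% of them, against 60.3% of 8613 tested genes and 32.9% of all 27025 windows. The Ets motif was in 16.7%, 15.6% and 7.05% of these sets, the E-box in 7.91%, 8.87% and 6.05%, TATAAA in 5.58%, 6.34% and 13.0%, the NRF1 motif in 4.19%, 3.54% and 1.58%, and the YY1 motif in 2.33%, 2.22% and 1.59%. The median window of a member held 12 CpG, that of a tested gene 16 and that of any gene 6. Among members with a KRAB match 35.4% had GGGCGG, and among those without it 54.5%. Of the members that were lower in GL7+ DMSO than in naive cells 43.4% of 145 had it, and of those that were higher 52.0% of 25. A match is a string of letters and not a bound site, and these shares were not tested against each other.

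For 30 numbered genes with a known role, listed without regard to how they moved, 27 reached the threshold. Zfp57 (imprint protection), Zfp521 and Zfp365 did not, with highest values of 0.09, 0.054 and 0.693 RPKM. Of the 27, 14 fell and 5 rose in GL7+ DMSO cells against naive cells, and 18 fell and 5 rose in CD138+ DMSO cells. Of all genes tested 40.3% fell and 41.3% rose in GL7+ cells, and 43.5% fell and 39.9% rose in CD138+ cells. Among the partners of chromatin enzymes, Zfp217 (CoREST) fell from a mean of 24.5 ± 1.35 RPKM in naive to 10.1 ± 1.03 in GL7+ DMSO and 6.21 ± 0.334 in CD138+ DMSO cells (SD, n = 3). Zfp644, which recruits G9a and GLP, fell from 8.75 ± 0.583 to 3.57 ± 0.0855 and 3.63 ± 0.269 RPKM, and Zfp638, which silences retroviral DNA with the HUSH complex, from 23.8 ± 1.87 to 12.8 ± 0.424 and 10.3 ± 0.231 RPKM. Zfp335, a partner of H3K4 methyltransferases, went from 29.2 ± 1.37 to 19.8 ± 0.615 and 20.2 ± 0.309 RPKM. All 4 passed the test in both fractions.

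Among sequence-specific activators, Zfp143, which binds promoters of many housekeeping genes, fell by 0.39 and 0.53 on the log2 scale in GL7+ and CD138+ DMSO cells, and Zfp148, which binds GC-rich promoters, fell by 0.84 and 0.73. Zfp410, which activates the NuRD gene Chd4, rose in GL7+ DMSO cells from 5.50 to 7.16 RPKM (log2 change 0.33, SE 0.09), and in CD138+ DMSO cells it stood at 5.87 RPKM (0.08, adjusted p 0.39). Of the retroviral and embryonic KRAB silencers, Zfp809, which recognises the primer binding site of murine leukaemia virus, had a mean of 11.9 ± 2.14 RPKM in naive, 7.08 ± 0.519 in GL7+ DMSO and 5.01 ± 0.463 in CD138+ DMSO cells and fell in both. Zfp568, a repressor of placental Igf2, fell in GL7+ DMSO cells (5.64 to 4.16 RPKM), and CD138+ DMSO cells had 5.97 RPKM (log2 change 0.07 from naive, adjusted p 0.35).

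Other members of the role list act on RNA, ribosomes or the spindle. Zfp598, the ubiquitin ligase of collided ribosomes, had means of 22.1, 20.9 and 19.8 RPKM in naive, GL7+ DMSO and CD138+ DMSO cells, a log2 change of -0.07 (adjusted p 0.27) in GL7+ and of -0.15 (adjusted p 0.03) in CD138+ cells. Its CD138+ call did not hold under 6 of 13 alternative analyses, with adjusted p up to 0.95. Zfp622, which matures the large ribosomal subunit, stood at 12.9, 12.1 and 7.52 RPKM, and fell in CD138+ DMSO cells (log2 change -0.70, SE 0.07) but not past the threshold in GL7+ cells (-0.08, adjusted p 0.29). Zfp326, of the DBIRD complex that couples splicing to transcription, had 6.54 RPKM in naive and GL7+ DMSO and 4.88 in CD138+ DMSO cells, a fall of 0.36 on the log2 scale. Zfp207, the spindle protein, had 60.1, 48.0 and 50.5 RPKM in naive, 66.5, 64.2 and 66.6 in GL7+ DMSO and 50.8, 47.1 and 48.7 in CD138+ DMSO cells. It was above naive in every GL7+ library (log2 change 0.32, adjusted p 0.00055), and CD138+ overlapped naive. With quantile normalization the GL7+ change was 0.02 (adjusted p 0.8), and the other 12 of 13 alternatives kept the call.

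Runs of neighbouring members varied in how evenly they moved. In the longest run of neighbours, 8 genes (Zfp382, Zfp568, Zfp14, Zfp146, Zfp260, Zfp82, Zfp566 and Zfp74), all 8 fell in GL7+ DMSO cells, from -0.36 for Zfp568 to -1.19 for Zfp14. In CD138+ DMSO cells 6 of them fell, Zfp260 rose by 0.48, and Zfp568 changed by 0.07 (adjusted p 0.35). A run of 5 (Zfp273, Zfp85, Zfp65, Zfp738 and Zfp493) had 5 of 5 lower in both fractions. In a run of 6 (Zfp677, Zfp51, Zfp52, Zfp54, Zfp53 and Zfp948) 2 were lower in each fraction, and Zfp53 rose in CD138+ cells. These runs of 5 and 6 were picked by no stated rule. Another run of 5 had 4 lower in GL7+ and 5 in CD138+ cells, and another of 6 had 5 and 6. Among all members 65.3% were lower in GL7+ and 69.9% in CD138+ DMSO cells, beside 40.3% and 43.5% of all genes tested. Over 81 neighbouring pairs the median difference of the log2 changes was 0.481 in GL7+ cells, against 0.579 over all 33411 pairs of members. In CD138+ cells it was 0.721 against 0.657, and neither difference was tested. Near-identical copies within a cluster can exchange reads, depending on how reads with several matches were counted, so values of single genes in such runs are uncertain.

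The partners through which KRAB proteins act were described from a list of their own. Of 26 co-repressor and H3K9 silencing genes, all tested, 16 rose and 6 fell in GL7+ DMSO cells against naive cells (median log2 change 0.28), and 12 rose and 10 fell in CD138+ DMSO cells (median 0.02). Over all genes tested 41.3% were higher and 40.3% lower in GL7+ cells, and 39.9% and 43.5% in CD138+ cells. Trim28 rose from a mean of 60.1 RPKM to 123 in GL7+ and 94.2 in CD138+ DMSO cells, with log2 changes of 1.02 and 0.64. Setdb1 rose from 14.5 to 24.0 and 22.2 RPKM, and the HP1 gene Cbx5 from 13.1 to 45.0 and 32.7 RPKM. Atf7ip, the stabiliser of SETDB1, fell from 46.7 to 11.6 and 14.6 RPKM, and Fam208a (TASOR, of the HUSH complex) from 17.8 to 3.87 and 2.41 RPKM. Uhrf1 rose from 6.85 to 113 and 75.3 RPKM, Dnmt1 from 23.2 to 61.9 and 53.7, and Suv39h1 from 10.2 to 31.4 and 27.3. Chd3 fell from 43.6 to 16.1 and 9.58 RPKM. Atf7ip was not among the 6 of the list with the smallest adjusted p, and is named after its values were seen. No test compared this list with the numbered Zfp genes.

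The CD138+ and GL7+ fractions of the same cultures differed less. Under DMSO 41 members were higher in CD138+ than in GL7+ cells (15.8%) and 71 lower (27.4%), beside 21.8% higher and 36.9% lower of all genes tested, or 43.2% against 58.7% in all. Under GSK-J4 48 were higher (18.5%) and 70 lower (27.0%), beside 24.0% and 39.0%, or 45.6% against 63.0% in all. The fractions did not overlap for 151 members under DMSO (58.3%, beside 71.3% of all genes tested) and for 143 under GSK-J4 (55.2%, beside 70.1%). The median log2 change was -0.09 under DMSO and -0.04 under GSK-J4, against -0.10 over all genes tested in both. The split depended on the scaling of the libraries. With TMM scaling 50 were higher and 48 lower under DMSO, and 62 and 48 under GSK-J4, with medians of -0.02 and 0.03, and with quantile normalization the counts were 49 and 50, and 66 and 48. The medians of all genes tested moved as well, to -0.02 under each treatment with TMM scaling. With quantile normalization they were -0.04 under DMSO and -0.02 under GSK-J4. Shares of all genes with a call are not given for these scalings.

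These 2 comparisons share no libraries, though they share mice. Of the 41 and 48 genes higher in CD138+ cells 32 were the same (78.0% and 66.7%), of the 71 and 70 lower 52 were the same (73.2% and 74.3%), and 0 had opposite calls. Across the 259 genes the log2 changes had the same sign in 219 and a Pearson r of 0.92, a description across genes that share mice, depth and length.

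Zfp9 and Zfp658 led the genes higher in CD138+ cells, 6.27-fold and 4.32-fold in mean RPKM under DMSO (log2 changes 1.71, SE 0.1, and 1.64, SE 0.2) and 5.45-fold and 4.05-fold under GSK-J4. The direction of Zfp9 was set by the threshold, which it passed through CD138+ libraries alone. Zfp260 had 9.12, 6.73 and 8.71 RPKM in naive, 5.09, 4.57 and 4.51 in GL7+ DMSO, 4.54, 4.73 and 4.04 in GL7+ GSK-J4, 12.1, 11.4 and 11.7 in CD138+ DMSO and 13.0, 12.4 and 10.4 in CD138+ GSK-J4. Its GL7+ libraries lay below and its CD138+ libraries above all naive ones, and the fractions differed by 1.15 and 1.25 on the log2 scale (SE 0.1). Zfp219 had 3.08, 3.10 and 3.62 RPKM in GL7+ DMSO and 8.62, 7.79 and 8.20 in CD138+ DMSO cells, 2.51-fold higher. Its naive values of 3.44, 4.60 and 3.09 RPKM overlapped the GL7+ ones. Zfp810 and Zfp652 under DMSO, and Zfp768 and Zfp516 under GSK-J4, were 1.91-fold to 2.58-fold higher in CD138+ cells.

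Among the genes lower in CD138+ cells, Zfp318 fell by 0.87 under DMSO and by 0.76 under GSK-J4 on the log2 scale (SE 0.07). Zfp930, a KRAB gene, had 6.95, 7.70 and 8.07 RPKM in GL7+ DMSO against 5.24, 3.58 and 3.46 in CD138+ DMSO cells, and 7.12, 7.20 and 7.46 in GL7+ GSK-J4 against 2.83, 3.12 and 2.41 in CD138+ GSK-J4 cells. The fractions did not overlap, with differences of -0.77 and -1.13 (SE 0.13). Zfp362, among the most abundant members, averaged 37.0 ± 1.06 RPKM in GL7+ DMSO against 20.6 ± 0.685 in CD138+ DMSO cells (SD, n = 3). Zfp239, Zfp788 and Zfp947 were 2.12-fold to 3.09-fold lower under GSK-J4. Of the 26 co-repressor genes, 21 were lower in CD138+ cells and 1, Atf7ip, was higher under each treatment. Over all genes tested 36.9% were lower and 21.8% higher under DMSO, and 39.0% and 24.0% under GSK-J4.

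**Figure D4:**
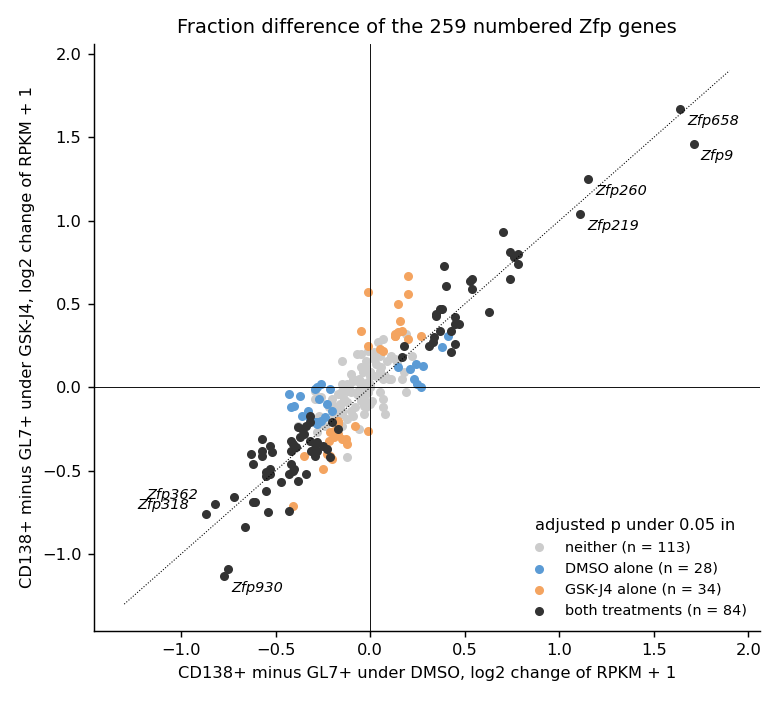
Each point is 1 of the 259 numbered Zfp genes, with its log2 change of RPKM + 1 from GL7+ to CD138+ cells under DMSO on the x axis and under GSK-J4 on the y axis; colours show in which treatment the adjusted p was under 0.05, and the dotted line marks equal changes. The 84 genes called under both treatments lie in the lower left and upper right, with Zfp9 and Zfp658 at the upper end and Zfp930 at the lower.

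GSK-J4 moved few of these genes. In CD138+ cells 2 members rose and 4 fell against DMSO, 0.772% and 1.54% of the 259 beside 4.61% and 8.61% of all genes tested (2.32% beside 13.2% in all). In GL7+ cells 2 rose and 10 fell, 0.772% and 3.86% beside 5.81% and 7.71% (4.63% beside 13.5% in all). Treated and untreated libraries did not overlap for 69 members in CD138+ (26.6%, beside 36.8% of all genes tested) and for 77 in GL7+ cells (29.7%, beside 40.6%). Every member's log2 change lay within 0.5 of 0 in both fractions, from -0.46 (Zfp651) to 0.46 (Zfp428) in CD138+ and from -0.45 (Zfp358) to 0.35 (Zfp428) in GL7+ cells, with a median SE of 0.0997. The median level of these genes is below that of all genes tested, and its part in the low share of calls was not tested. The 164 other genes with at least 3 fingers had 23 calls in each fraction (14.0%). With the mouse as a block in the fit 0 rose and 1 fell in CD138+ cells, and 3 rose and 16 fell in GL7+ cells. The CD138+ GSK-J4 library without a mouse was a level of its own there and added nothing to the CD138+ contrast. The CD138+ block counts thus rest on treated replicates 1 and 2 alone. Leaving libraries out moved the counts as well: 1 library fewer gave 0 to 6 higher and 1 to 16 lower in CD138+ cells, and 0 to 5 higher and 0 to 19 lower in GL7+ cells. The largest, 16 and 19 lower, came without naive replicate 2, the shallowest library, which enters these contrasts through the shared variance alone. The other libraries outside the groups compared were not left out of these contrasts. Without GL7+ DMSO replicate 1 no member was lower in GL7+ cells. Shares of all genes tested are given for the main fit alone, not for these alternatives.

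Zfp651 was the sole member called in both fractions, and it is named here after its values were seen. It had 0.023, 0 and 0.024 RPKM in naive, 0.796, 0.748 and 0.72 in GL7+ DMSO, 0.432, 0.491 and 0.431 in GL7+ GSK-J4, 1.82, 1.60 and 1.75 in CD138+ DMSO and 0.843, 1.01 and 1.11 in CD138+ GSK-J4. Treated libraries were below untreated ones in both fractions without overlap, with log2 changes of -0.46 (SE 0.08, adjusted p 0.0017, limma) in CD138+ and -0.27 (SE 0.08, adjusted p 0.031) in GL7+ cells. The GL7+ call was lost without GL7+ DMSO replicate 1, where no member was lower. How many other alternatives kept the calls of Zfp651 was not counted. Its naive level rests on 3 reads, and its pooled rate was 78.8 times as high in CD138+ DMSO as in naive cells (95% counting interval 26.7 to 384). Zfp651 reached 1 RPKM in CD138+ libraries alone, so the threshold set the direction of that difference.

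In CD138+ cells Zfp428 rose from a mean of 3.53 ± 0.147 to 5.26 ± 0.818 RPKM with GSK-J4 (log2 change 0.46, SE 0.13, adjusted p 0.027, limma), and Zfp566, a KRAB gene, from 1.85 ± 0.0309 to 2.72 ± 0.166 (0.38, SE 0.11, adjusted p 0.035). Zfp9 fell from 4.83 ± 0.743 to 3.53 ± 0.234 RPKM (-0.36, SE 0.1, adjusted p 0.033) and Zfp938 from 4.38 ± 0.326 to 3.38 ± 0.123 (-0.30, SE 0.08, adjusted p 0.019), with n = 3 and no overlap for any of these 4. Each of the 4 calls was lost under 6 to 9 of 14 alternative analyses, with the adjusted p of Zfp428 reaching 0.47 and that of Zfp9 0.29. Zfp445, the imprint protector, was also called lower (18.4 to 14.9 RPKM, adjusted p 0.048), with overlapping groups, and is named after its values were seen.

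In GL7+ cells Zfp609 had 5.51, 4.64 and 4.83 RPKM with DMSO and 6.05, 6.65 and 6.54 with GSK-J4, a rise of 0.31 on the log2 scale (SE 0.08, adjusted p 0.018, limma). Zfp706 rose from 52.1 ± 1.34 to 60.9 ± 0.47 RPKM (log2 change 0.22, adjusted p 0.027). Zfp358 fell from 3.71 ± 0.446 to 2.46 ± 0.363 RPKM (-0.45, SE 0.1, adjusted p 0.0095) and Zfp408 from 8.04 ± 1.03 to 5.86 ± 0.686 RPKM (-0.40, SE 0.11, adjusted p 0.033). The log2 changes of Zfp709, Zfp87, Zfp386 and Zfp318 were -0.35, -0.31, -0.29 and -0.29. Each of these 8 calls was lost under 1 to 9 of 14 alternative analyses, with adjusted p up to 0.18. For each the 3 treated and the 3 untreated libraries did not overlap. Zfp84, Zfp329 and Zfp655, outside the naming rule and picked out after their values were seen, completed the 10 lower members, with changes of -0.24, -0.32 and -0.23.

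**Figure D5:**
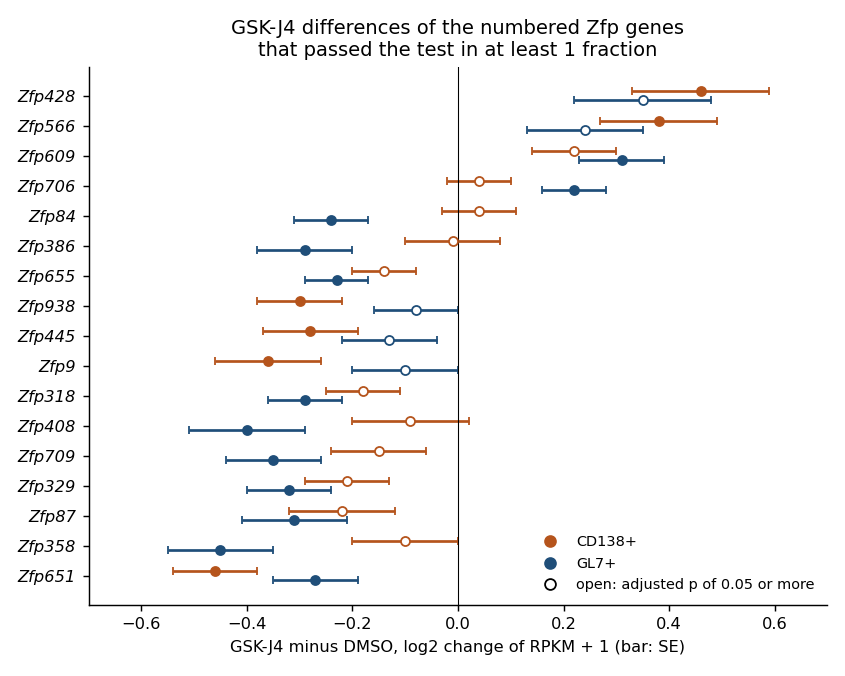
Log2 change of RPKM + 1 from DMSO to GSK-J4 with its SE for the 17 numbered Zfp genes that passed the test in CD138+ (orange) or GL7+ cells (blue); open points had an adjusted p of 0.05 or more. Every change lies between -0.46 and 0.46, and Zfp651 is the sole gene with 2 filled points.

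The response to GSK-J4 was not shown to differ between the fractions for any member. In the test of the difference 0 of 259 had an adjusted p under 0.05 (limma), beside 0.966% of all genes tested (0.322% higher and 0.644% lower), and 13 had an unadjusted p under 0.05 (5.02%, beside 13.4% of all genes tested). The smallest adjusted p was that of Zfp429, with a difference of 0.38 (CD138+ minus GL7+, SE 0.11, adjusted p 0.13). Zfp84 followed with 0.29 (adjusted p 0.17) and Zfp580 with 0.58 (SE 0.2, adjusted p 0.19). The calls lower in CD138+ and GL7+ cells shared 1 gene of 4 and 10, and those higher shared 0 of 2 and 2. Across the 259 genes 181 changes had the same sign in both fractions, with a Pearson r of 0.43, which is given as a description, since the fractions share mice and the changes of genes are not independent.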

How the data were processed

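Poly(A) RNA of 15 libraries in 5 groups of 3 was measured. The authors deposited RPKM per gene and a gene length in bases for 21761 genes, per the file headers. Reads were aligned to mm9 with TopHat2, per the submitters' processing notes. Software versions, the counter, the annotation, strandedness and the handling of reads with several matches were not given in the sources used here, so overlapping genes and near-identical copies cannot be told apart. RPKM times length, for values worth up to 20 reads, fell on whole reads (tolerance 0.1 read) for 100% of values, and the step gave the depth of a library (mean 9198122 reads). The step was taken as the largest that left whole reads, so that 38.6 to 41.5% of these values were even numbers.

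The 10866 genes that reached 1 RPKM in 3 or more libraries were tested on log2(RPKM + 1), a pseudocount of 1, with limma 3.58.1 (R 4.3.3). A single fit took all 15 libraries, with a mean per group, a trended variance, two-sided tests and Benjamini-Hochberg adjustment over all genes tested with a threshold of 0.05. The procedure was tested on simulated data. The design foresaw a count test had counts been deposited; RPKM led to limma. Exact binomial limits gave the counting intervals.

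The members, gene lists and tests were chosen with earlier results of these data known. The genes named were up to 6 per direction and comparison with the largest change past the threshold, provided that the higher group averaged 2 RPKM or more and the groups did not overlap; the 6 with the highest mean; 3 on each side of the level threshold; and 30 with a known role. From the co-repressor list the 6 with the smallest adjusted p in any comparison were named, with Trim28 and Setdb1. Others are said to be named after their values were seen. Fingers, KRAB and SCAN boxes were found by pattern in coding sequences of GENCODE M21. All 259 members matched RefSeq (GRCm38.p6) by Entrez identifier, used for names, gene order and the sequences shown, and no coordinate of the files was converted.

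Replicate numbers stand for mice, per the labels, so they pair the libraries. Libraries of the same mouse deviated from their groups with a median r of 0.071 (-0.039 to 0.191 over 26 pairs), those of different mice with -0.032 (52 pairs). The CD138+ GSK-J4 column numbered 4 in the header matches that group and no single sample, while replicate 3 of the labels has no column of its own. It entered as replicate 4, a level of its own in the block, so it added nothing to the group differences of the block fit. Alternatives were TMM scaling, quantile normalization, a pseudocount of 0.1, no filter, voom on the recovered reads, only the groups compared, the mouse as a block, and each library left out in turn. Python 3.11.15 and matplotlib 3.10.9 drew the figures.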

Additional observations from a re-analysis of the deposited data

How the results depend on the processing

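The counts against naive cells and between the fractions stayed within 1.5 times their value under every alternative run. Leaving out 1 library at a time gave 31 to 38 members higher and 161 to 171 lower in GL7+ DMSO against naive cells, 34 to 41 and 175 to 183 in CD138+ DMSO against naive cells, 33 to 44 and 56 to 83 between the fractions under DMSO, and 41 to 60 and 51 to 73 under GSK-J4. TMM scaling moved the median of all genes in CD138+ DMSO against naive cells from -0.05 to 0.08, and that of the members from -0.52 to -0.39, with 50 higher and 162 lower. The replicate block gave 35 higher and 168 lower, 39 and 182, 42 and 73, and 46 and 50 in these comparisons. No shares of all genes tested are given beside these counts.

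The few GSK-J4 calls moved with the analysis, and the cause was not tested. Shares of all genes tested are not given for these alternatives, so the counts cannot be set against a background. In CD138+ cells (2 higher, 4 lower) the higher count was 8 with quantile normalization, 1 with a pseudocount of 0.1, 1 without the filter, 5 with voom and 0 with the replicate block. Leaving out 1 of the libraries compared gave 0 to 1, and leaving out naive replicate 2 gave 6. The lower count was 1 with quantile normalization, 8 with a pseudocount of 0.1, 9 with voom, 8 with only the groups compared and 1 with the block. It was 2 without CD138+ DMSO replicate 1, 1 without replicate 3, 8 without CD138+ GSK-J4 replicate 2, 2 without replicate 4 and 16 without naive replicate 2. In GL7+ cells (2 higher, 10 lower) the higher count was 1 with TMM scaling, 6 with voom and 5 with only the groups compared, 0 to 1 without 1 of the libraries compared and 5 without naive replicate 2. The lower count was 3 with quantile normalization, 27 with voom, 18 with only the groups compared and 16 with the block. It was 0, 6 and 1 without GL7+ DMSO replicates 1, 2 and 3, 9, 4 and 4 without GL7+ GSK-J4 replicates 1, 2 and 3, and 19 without naive replicate 2, a library left out of these comparisons after its depth was seen. The difference between the fractions had 0 calls with any cultured library or naive replicate 2 left out, and 1 lower with only the groups compared. Of the tests of single named genes under alternatives, 2607 kept their side of the threshold, 125 lost a call and 52 gained one.

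The threshold of 0.5 RPKM would give 276 members and that of 2 RPKM 231, letter suffixes 277. A looser KRAB pattern matched 130 and a stricter one, chosen later, 101. A median of 31 reads per member in naive replicate 2 limits what can be said of low genes.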

Other observations

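Of the 67 numbered Zfp genes below the level threshold, 55 had values above 0 in enough libraries to be fitted without the filter. In GL7+ DMSO against naive cells 13 of them were lower and 6 higher, and in CD138+ DMSO against naive cells 12 and 5, with adjusted p under 0.05 (limma). These were 23.6% lower and 10.9% higher in GL7+ and 21.8% and 9.09% in CD138+ cells, beside 24.3% and 8.67%, and 25.1% and 9.98%, of all 4647 genes below the threshold that were fitted. Another 27 genes carry a letter after the number, of which 18 passed the filter. Of these 18, 10 were lower and 2 higher in GL7+ DMSO than in naive cells, and 10 and 2 in CD138+ DMSO cells (55.6% and 11.1% in each). The 10 members with a SCAN box had 5 lower and 0 higher calls in GL7+ DMSO cells, and 6 and 1 in CD138+ DMSO cells. All genes tested had 40.3% lower and 41.3% higher in GL7+, and 43.5% and 39.9% in CD138+ DMSO cells. These small sets were not tested against them.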
